A study of Mus musculus with 6 samples.

Results

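The actin-binding proteins and myosins on these arrays were taken as the genes whose symbol in the array's probe annotation belongs to the Actn, Capz, Cfl, Pfn, Tmsb, Tpm, Myl, Myh, Myo or Fln families or begins with Lima or Limc, with Cap1, Ezr, Msn, Rdx, Dstn, Wdr1, Gsn, Svil, Cttn, Fscn1, Vasp and Cotl1. This names 39 genes of the 6788 with a symbol of their own, held by 64 clones and 128 spots. The rule uses names and no measured value, and was written with earlier results of these data known. Mouse Neuro-2a cells, a neuroblastoma line, were transiently transfected with 59Q, a plasmid for human TBP with a CAG repeat length of 59 fused to GFP, or with N3, the pEGFPN3 vector for GFP without TBP. Total RNA taken 60 h later from 59Q transfected and N3 transfected cells was hybridized together on 6 two-colour cDNA arrays. 59Q was labelled with Cy5 on replicates 1, 3, 4 and 6 and with Cy3 on replicates 2 and 5. Both plasmids carry GFP, all cells keep their own mouse TBP, transfection reached only part of the cells in either group, and no construct with a short repeat was on the arrays.

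Actin filaments grow at the barbed end from monomers, and proteins of these families decide where filaments start, stop, bundle, break and slide. Cofilins and destrin sever and disassemble filaments, thymosins hold monomers apart from them, capping protein closes barbed ends, and tropomyosins lie along the filament and set which other proteins reach it. Alpha-actinins, filamins and fascin crosslink or bundle filaments, ezrin, moesin and radixin tie them to the membrane, and myosins pull on them. In neuronal cells these proteins shape growth cones, filopodia and the cell body. TBP, the expressed factor, is the TATA-binding protein used by all RNA polymerases.

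The deposited value of a spot is a Z-ratio, a score scaled to an SD of 1 on every array, and it gives no level and no fold change. According to the methods 59Q is the treated sample and N3 its control, but whether the arrays with 59Q in Cy3 were turned to that direction is not stated. The study followed up Actb, Eef1a1, Eef2, Vdac1, Ubb and Dctn5 and reported them higher in 59Q transfected cells, also by real-time PCR. Values of Vdac1, Ubb and Dctn5 are not given here. Actb, Eef1a1 and Eef2 averaged 1.45, 1.51 and 1.51 with 59Q in Cy5 and -1.43, -1.38 and -1.47 with 59Q in Cy3. They lie above 0 in both orientations only with replicates 2 and 5 turned. An unturned ratio and a dye effect on these genes cannot be told apart. Values are given first as deposited, where a value above 0 is taken as higher in 59Q transfected cells, and beside it as Cy5 over Cy3, for which replicates 2 and 5 change sign. Replicates 1, 3, 4 and 6 keep their sign under both. Replicates 3, 4 and 6 also keep it if the ratio is channel 2 over channel 1, where replicate 1, with 59Q in channel 1, would be turned. The dye coefficient of a gene is the mean with 59Q in Cy5 minus the mean with 59Q in Cy3, divided by 2. Over all genes, Pearson's r across genes had a median of 0.171 between arrays of the same orientation and -0.270 between arrays of opposite orientation. The files do not allow the neuroblast identity of the cells to be checked, since a ratio carries no level. Of 18 neuroblast markers 7 were tested, as deposited 3 above 0 and 4 below 0, with a median of -0.0180. Of these 0 were called and 0 were at an unadjusted limma p under 0.05. As Cy5 over Cy3 their median was -0.0178, with 0 called. Under that reading 3 of 7 were at an unadjusted limma p under 0.05, against 19.8% of all genes. Tnnt1, the only striated muscle marker of 14 tested, averaged -0.188 as deposited and -0.0290 as Cy5 over Cy3. Lyz2, the only immune marker of 9, averaged 0.124 and -0.0335. The 10 smooth muscle and fibroblast markers tested of 13 had medians of -0.0950 and 0.0120.

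Of the 39 members, 36 had a value on at least 4 arrays and were tested. 32 of 39 were measured on all 6 arrays, 82.1% against 72.6% of all genes. Actn2, Myo5a and Myo9a, each measured on replicates 1, 2 and 5 only, were not tested. As deposited, 0 of 36 members were called by limma at an adjusted p under 0.05, where 0% of all 6463 genes tested were called. The smallest adjusted p among the members was 0.999. At an unadjusted p under 0.05 there were 2 members, Svil and Flna, both below 0. They make 5.56% of the members, against 2.61% of all genes on either side of 0 and 1.64% below 0. The means of 13 members lay above 0 and of 23 below 0, so that 36.1% lay above 0, against 43.1% of all genes. The median of the members was -0.0626 and that of all genes -0.0449. No member had a mean of at least 1.96 on either side of 0, the threshold that the methods of the study set on a Z-ratio, and 0.263% of all genes did. On at least 1 array 5 tested members passed it (Cfl1, Myo19, Svil, Tmsb4x and Tpm4), which is 13.9%, against 12.7% of all genes.

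**Figure D1:**
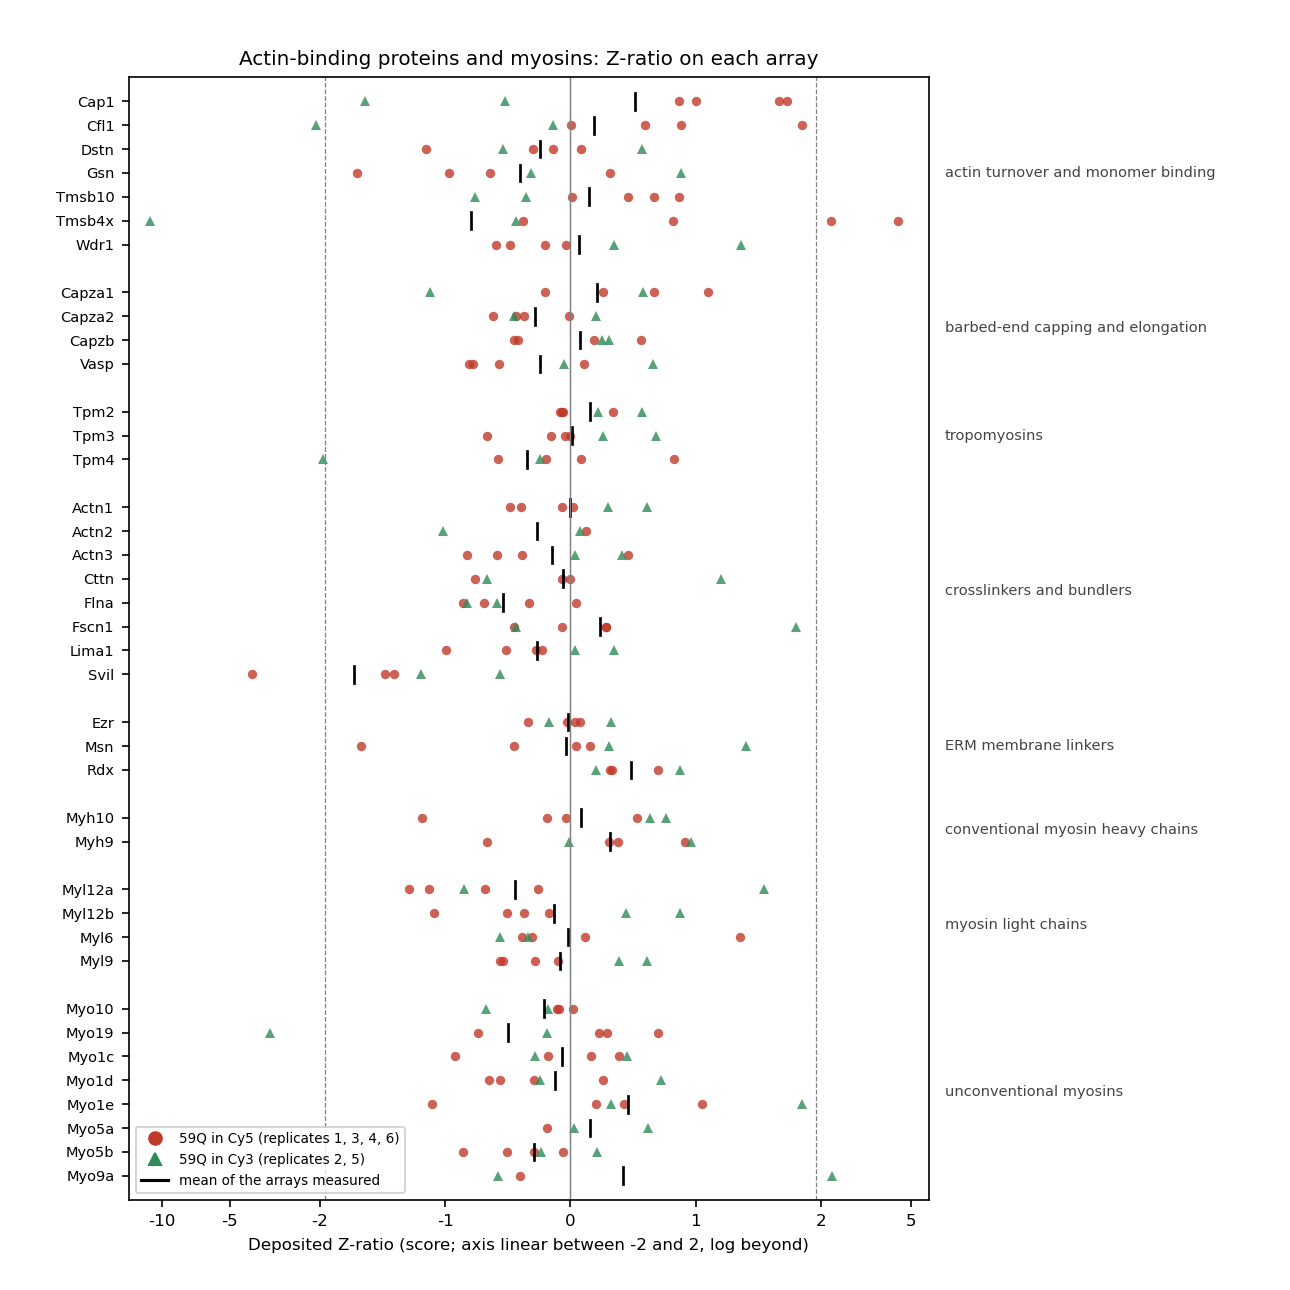
Deposited Z-ratio (horizontal axis, a score, linear between -2 and 2 and logarithmic beyond) of each of the 39 members in order of role, with the arrays that carry 59Q in Cy5 as circles, those with 59Q in Cy3 as triangles, the mean as a black bar and dashed lines at 1.96 on both sides of 0. Svil lies below 0 and Rdx above 0 on each array that measured them, while the circles and triangles of Cap1, Cfl1, Tmsb10, Wdr1, Myl12b and Myl9 lie on opposite sides of 0.

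More members took opposite signs in the dye orientations (8) than took 1 sign on every array (2). Read as Cy5 over Cy3, 0 of 36 members were called by limma, where 0.279% of all genes were. At an unadjusted p under 0.05 this reading held 7 members, 19.4% against 19.8% of all genes. Cap1, Cfl1, Tmsb10 and Tmsb4x were above 0, 11.1% against 6.42% of all genes. Myl12b, Myl9 and Wdr1 were below 0, 8.33% against 13.4%. The means of 10 members lay above 0, 27.8% against 34.6% of all genes. The median of the members was -0.239 under this reading, and that of all genes -0.160. For the dye coefficient 0 members were called, with 0% of all genes called and 7 members at an unadjusted p under 0.05. These are 19.4% of the members, against 16.1% of all genes. The coefficient was above 0 for Cap1, Cfl1, Myo19, Tmsb10 and Tmsb4x, 13.9% against 5.91% of all genes, and below 0 for Myl12b and Wdr1, 5.56% against 10.2%. Over all members tested 27.8% of the coefficients were above 0, and over all genes 35%. Both quantities use the same 6 arrays and the same turned signs, so they are not separate evidence. On every array measured, 8 members took 1 sign with 59Q in Cy5 and the other sign with 59Q in Cy3, which is 22.2%, against 15.4% of all genes. Of these, Cap1, Cfl1 and Tmsb10 were above 0 with 59Q in Cy5, 8.33% against 4.67% of all genes. Lima1, Myl12b, Myl9, Tpm3 and Wdr1 were below 0 with 59Q in Cy5, 13.9% against 10.8%. The values of Cfl1, Lima1, Myl12b, Tpm3 and Wdr1 are averages of several clones, not all of which kept these signs. By contrast 2 members kept 1 sign on every array measured, Rdx and Svil, 5.56% against 3.05%. Both were measured on 5 arrays, without replicate 3, and fewer arrays make 1 sign likelier by chance. The share of all genes covers genes on 4 to 6 arrays. Rdx was the member above 0, where 1.64% of all genes were, and Svil the member below 0, where 1.41% were. Whether the dye itself or an unturned ratio separates the orientations cannot be told apart from these values. With a term for the dye, the intercept left 0 members called (0% of all genes) and 2 at an unadjusted p under 0.05, 5.56% against 2.79% of all genes. On the arrays with 59Q in Cy5 alone 0 members were called (0% of all genes) and 5 were at an unadjusted p under 0.05, 13.9% against 14.5%. On replicates 3, 4 and 6 alone 0 were called (0% of all genes) and 5 were at an unadjusted p under 0.05, 13.9% against 10.7%.

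**Figure D2:**
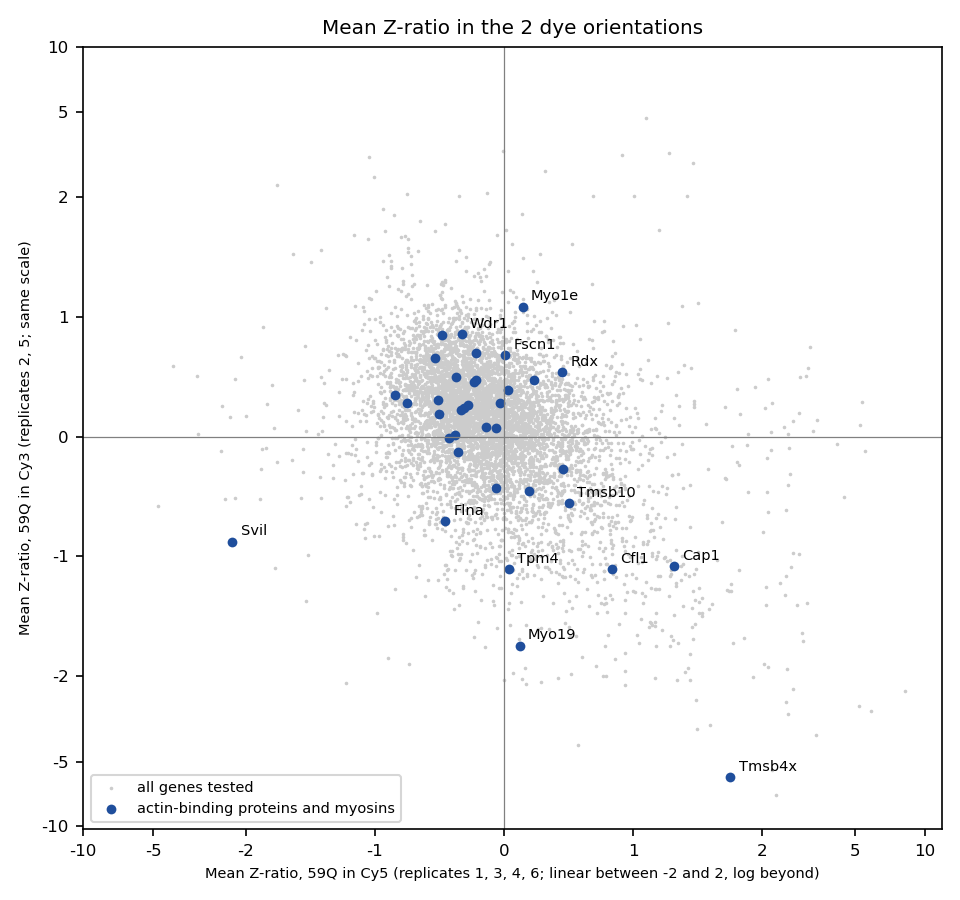
Mean Z-ratio over the arrays with 59Q in Cy5 (horizontal axis) against the mean over those with 59Q in Cy3 (vertical axis), both scores on a scale that is linear between -2 and 2 and logarithmic beyond, for all genes tested in grey and the 36 members in blue. Svil and Flna lie below 0 on both axes and Rdx above 0 on both, and Tmsb4x stands at 1.75 and -5.89.

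Actin turnover and monomer binding had 7 members, all tested, 4 of them above 0 and 3 below, with a median of 0.0661. The dye coefficient was above 0 for 4 (Cap1, Cfl1, Tmsb10 and Tmsb4x) and below 0 for 3 (Dstn, Gsn and Wdr1). The median coefficient of 0.529 is that of Tmsb10, where that of all members was -0.202 and that of all genes -0.159. Cap1, the cyclase-associated protein that recycles monomers from cofilin, showed Z-ratios of 0.865, 1.00, 1.73 and 1.67 on replicates 1, 3, 4 and 6, with 59Q in Cy5, and -0.526 and -1.64 on replicates 2 and 5, with 59Q in Cy3. The orientations did not overlap. The share of all genes without overlap is not given, so a lack of overlap cannot be read as particular to this or any later member. Its mean was 0.516 ± 1.33 (SD, n = 6) as deposited and 1.24 ± 0.507 as Cy5 over Cy3, the smallest adjusted p of any member under that reading (limma, 0.0659). The exact sign-flip permutation test gave its smallest possible p, 0.0312, for the second mean and 0.344 for the first, both 2-sided. The dye coefficient was 1.20 ± 0.248 (SE; limma adjusted p = 0.169).

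Cfl1, the non-muscle cofilin, had 1.85, 0.885, 0.00600 and 0.594 where 59Q carried Cy5 and -2.07 and -0.139 where it carried Cy3. Again the orientations lay on opposite sides of 0, replicate 4 only just. As deposited it averaged 0.187 ± 1.32, and as Cy5 over Cy3 0.925 ± 0.866 (SD, n = 6; limma adjusted p = 0.165). Its clones differed. The clone at probes 3965 and 3966 had a dye coefficient of 1.54 and that at probes 18681 and 18682 one of 0.402. The latter did not keep opposite signs in the orientations. It was at -0.774 and -0.629 on replicates 4 and 6, and at 0.211 on replicate 5. Destrin (Dstn), a close relative of cofilin, did not share the pattern. It had -1.16, 0.0842, -0.141 and -0.295 with 59Q in Cy5 and 0.571 and -0.540 with 59Q in Cy3, so the orientations overlapped, with a mean of -0.246 ± 0.584. Wdr1, the partner of cofilin known as actin-interacting protein 1, ran opposite to Cfl1. It had -0.0378, -0.591, -0.203 and -0.484 with 59Q in Cy5, against 1.36 and 0.350 with 59Q in Cy3. Its dye coefficient was -0.593 ± 0.225 (SE; limma adjusted p = 0.277). Its mean as deposited, 0.0661 ± 0.718, lay close to 0.

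The thymosins, small proteins that bind actin monomers, both averaged higher with 59Q in Cy5. Tmsb4x had -0.376, 4.36, 0.820 and 2.21 with 59Q in Cy5, and -0.437 and -11.3 with 59Q in Cy3. Its orientations did not overlap, though replicates 1 and 2 lay close together. Replicate 5 set its deposited mean of -0.794 ± 5.47, which was 1.32 without that array. The mean as Cy5 over Cy3 was 3.13 ± 4.35 (limma adjusted p = 0.226), and the dye coefficient of 3.82 ± 1.25 (SE; adjusted p = 0.254) was the highest among the members. Without replicate 2 that coefficient was 6.55 with an adjusted p of 0.0254, and Tmsb4x was then 1 of 4 genes called of 5950. That fit has 59Q in Cy3 on replicate 5 alone, the array at -11.3, and takes its spread from the other orientation, so it is no replicated test of the coefficient. Its single clone is spotted in duplicate, and the spots gave -11.2 and -11.5 on replicate 5 but 6.56 and 2.16 on replicate 3. Tmsb10 was within 1 of 0 on each array, with 0.864, 0.666, 0.461 and 0.0164 with 59Q in Cy5 and -0.759 and -0.352 with 59Q in Cy3. It averaged 0.149 ± 0.627 as deposited and 0.520 ± 0.310 as Cy5 over Cy3. Gelsolin (Gsn), which severs and caps filaments, averaged -0.404 ± 0.923 with overlapping orientations.

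**Figure D3:**
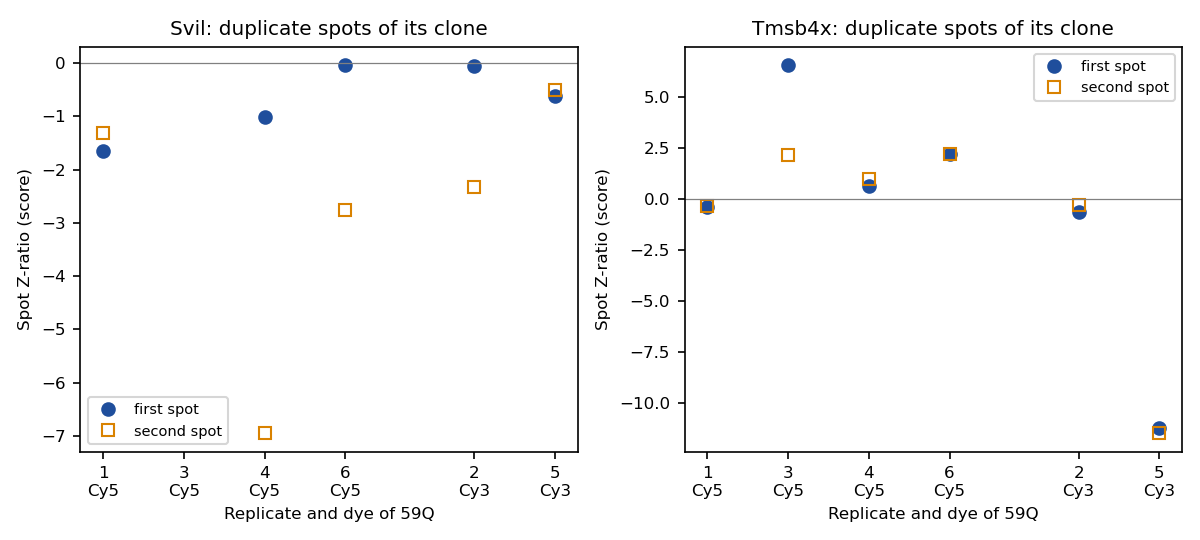
Z-ratio (vertical axis, a score) of the duplicate spots of the only clone of Svil (left) and of Tmsb4x (right) on each array, with 59Q in Cy5 left of 59Q in Cy3, the first spot as a filled circle and the second as an open square. The spots of Svil stand at -1.02 and -6.95 on replicate 4, and those of Tmsb4x at -11.2 and -11.5 on replicate 5.

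Barbed-end capping and elongation had 4 members, 2 above 0 and 2 below, with a median of -0.0832, and 0 called. Capza1 and Capza2, which code for alternative alpha subunits of capping protein, had means of opposite sign. Capza1 had -0.200, 0.262, 0.665 and 1.10 with 59Q in Cy5 and 0.580 and -1.12 with 59Q in Cy3, a mean of 0.214 ± 0.783. Capza2 had -0.433, -0.0113, -0.374 and -0.617 with 59Q in Cy5 and 0.201 and -0.451 with 59Q in Cy3, a mean of -0.281 ± 0.310. Capza2 was below 0 on 5 of 6 arrays, with an exact sign-flip p of 0.0938. The orientations overlapped for both, and the difference between the genes was not tested. The beta subunit Capzb averaged 0.0740 ± 0.413 and Vasp, which speeds elongation at barbed ends, -0.240 ± 0.579.

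The 3 tropomyosins measured were Tpm2, Tpm3 and Tpm4, with means of 0.153 ± 0.268, 0.0122 ± 0.449 and -0.346 ± 0.928 (SD, n = 6 each). Tpm3 had -0.00539, -0.668, -0.154 and -0.0437 with 59Q in Cy5, against 0.259 and 0.686 with 59Q in Cy3. The orientations did not overlap, though replicate 1 lay just below 0. Tpm4 passed 1.96 on replicate 5, at -1.98. Tpm1 was not among the genes with a symbol of their own.

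Crosslinkers and bundlers had 8 members, 7 of them tested, with 1 above 0 and 6 below and a median of -0.148. As Cy5 over Cy3 the 7 lay below 0. Svil, supervillin, which links actin and myosin II to the membrane, was the lowest member. It had -1.48, -3.98 and -1.40 on replicates 1, 4 and 6, with 59Q in Cy5, and -1.19 and -0.560 on replicates 2 and 5, with 59Q in Cy3. Replicate 3 had no value. All 5 arrays lay below 0, and the orientations did not overlap but were on the same side of 0. The mean was -1.72 ± 1.31 (SD, n = 5), with an unadjusted limma p of 0.00295, rank 3 among all genes, and an adjusted p of 0.999. The exact sign-flip test gave 0.0625, the smallest p that 5 arrays allow. As Cy5 over Cy3 the mean was -1.02 ± 2.03. The duplicate spots of its clone differed. The first spot averaged -0.678 ± 0.676 and the second -2.77 ± 2.50. On replicates 2, 4 and 6 the second spot lay at -2.32, -6.95 and -2.77 where the first lay at -0.0625, -1.02 and -0.0436. Where clones were used only on arrays whose duplicate spots lay within 1 of each other, Svil had too few arrays to be tested. Leaving out replicate 4 gave a mean of -1.16.

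Flna, the X-linked filamin that crosslinks filaments into networks, had -0.686, -0.329, 0.0434 and -0.858 with 59Q in Cy5, and -0.824 and -0.586 with 59Q in Cy3. It was below 0 on 5 of 6 arrays and the orientations overlapped. The mean was -0.540 ± 0.344 (unadjusted limma p = 0.0341, adjusted p = 0.999; exact sign-flip p = 0.0625), against -0.0697 ± 0.680 as Cy5 over Cy3. The clone at probes 25961 and 25962, measured on 4 arrays, averaged -1.11 ± 0.873, and the clone at probes 15561 and 15562, measured on 6, averaged -0.140 ± 0.604. On replicate 2 they stood at -2.37 and 0.727.

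Fscn1, fascin, which bundles filaments in filopodia, had -0.0697, 0.281, 0.281 and -0.454 with 59Q in Cy5, and 1.80 and -0.436 with 59Q in Cy3, a mean of 0.234 ± 0.834. Replicate 2 stood apart from the other arrays, and the mean without it was -0.0794. Actn1, the non-muscle alpha-actinin, had 0.0242, -0.398, -0.0666 and -0.486 with 59Q in Cy5, against 0.608 and 0.303 with 59Q in Cy3. Its orientations did not overlap, and its mean of -0.00247 ± 0.415 was the closest to 0 of the tested members. Lima1, which stabilizes filaments, had -0.990, -0.274, -0.510 and -0.227 with 59Q in Cy5, against 0.345 and 0.0340 with 59Q in Cy3. It took 1 sign in each orientation and averaged -0.270 ± 0.458. Actn3 averaged -0.148 ± 0.533 and cortactin (Cttn), a partner of the Arp2/3 complex, -0.0611 ± 0.784. Actn2, the muscle alpha-actinin, was at 0.125 on replicate 1, and at 0.0804 and -1.01 on replicates 2 and 5.

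Of the membrane linkers, radixin (Rdx) was the only member tested that lay above 0 on every array that measured it. It had 0.315, 0.329 and 0.697 on replicates 1, 4 and 6, and 0.205 and 0.871 on replicates 2 and 5, all above 0, with overlapping orientations. The mean was 0.484 ± 0.285 (SD, n = 5; limma p = 0.0775 unadjusted and 0.999 adjusted; exact sign-flip p = 0.0625). As Cy5 over Cy3 it was 0.0532 ± 0.608. Its clones did not keep that sign: the clone at probes 5443 and 5444 was at -0.217 on replicate 2, and that at probes 19311 and 19312 at -0.307 on replicate 1. Moesin (Msn) had -1.67, 0.0440, -0.451 and 0.156 with 59Q in Cy5, against 1.40 and 0.310 with 59Q in Cy3. Its orientations did not overlap, the mean was -0.0351 ± 1.01 and the dye coefficient -0.667 ± 0.304 (SE; limma adjusted p = 0.320). Ezrin (Ezr) stayed within -0.337 and 0.325 on the 6 arrays and averaged -0.0185 ± 0.226, with overlapping orientations of -0.0309, 0.0334, -0.337 and 0.0725 with 59Q in Cy5 and 0.325 and -0.174 with 59Q in Cy3.

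The small values of Ezr averaged over clones that did not move alike. Of its 5 clones, that at probes 12387 and 12388 had 1.33, 1.01, 1.14 and 1.65 with 59Q in Cy5, against -0.894 and -0.671 with 59Q in Cy3. It was 1 of 2 member clones called of 59 tested when every clone was tested on its own as Cy5 over Cy3 (limma adjusted p = 0.0366, mean 1.12 ± 0.344), where 279 of 14418 clones were. The other was the single clone of Cap1. The other 4 clones of Ezr had negative dye coefficients, -0.322, -0.332, -0.422 and -0.367, where the first had 1.03. As deposited, 0 member clones were called, 0 of all 14418 clones were, and 3 of 59 were at an unadjusted limma p under 0.05, against 295 of all clones. These 3 were clones of Flna, Fscn1 and Svil. Among the 17 members with more than 1 clone, the clone means had both signs for 9 and the dye coefficients for 6 (Capza2, Ezr, Flna, Fscn1, Myo1c and Tpm2). Myo10 and Rdx had a dye coefficient for 1 clone only and could not show both signs. These shares are not given for all genes, so neither count can be read as particular to the members. Fscn1 had clone means of -0.122, 0.704, 0.0147 and 0.339. Lima1 had 0.252, -0.430 and -0.634, and Actn1 had 0.0290, 0.0186 and -0.0550. Whether clones of a gene hold different transcripts or bind transcripts of other genes was not tested. Duplicate spots of member clones differed by more than 1 in 12 of 349 cases, 3.44%, against 5.77% of all clones, and 3 of the 12 were Svil.

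**Figure D4:**
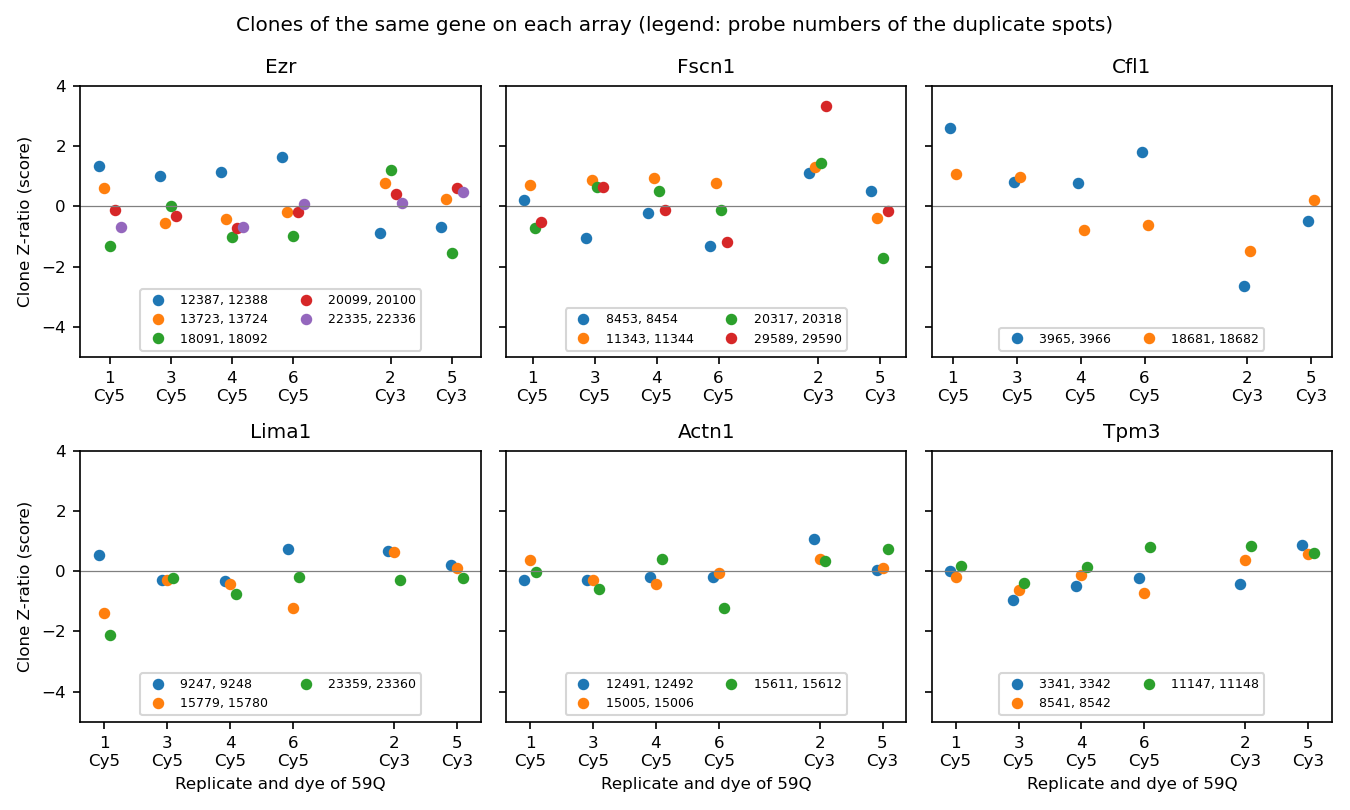
Z-ratio (vertical axis, a score) of each clone of 6 members on each array, 59Q in Cy5 left of 59Q in Cy3, each colour a clone named by the probe numbers of its duplicate spots. The Ezr clone at probes 12387 and 12388 lies above 0 in the 59Q in Cy5 orientation and below 0 in the other, and a clone of Fscn1 reaches 3.34 on replicate 2.

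The heavy chains of conventional non-muscle myosin, Myh9 and Myh10, averaged 0.313 ± 0.607 and 0.0875 ± 0.730 (SD, n = 6 each). Myh9 had -0.663, 0.304, 0.378 and 0.914 with 59Q in Cy5, and 0.961 and -0.0127 with 59Q in Cy3, with overlap. Myh10, the main form of neuronal tissue, had 0.533, -0.183, -0.0372 and -1.19 with 59Q in Cy5, against 0.766 and 0.633 with 59Q in Cy3, with no overlap. The 4 light chains had means below 0, at a median of -0.107, and none was called. Myl12b, a regulatory light chain, had -1.09, -0.371, -0.502 and -0.171 with 59Q in Cy5, against 0.877 and 0.447 with 59Q in Cy3. Its orientations were of opposite sign, and its dye coefficient was -0.597 ± 0.218 (SE; limma adjusted p = 0.266), with a mean of -0.134 ± 0.701. Neither of its clones kept these signs. The clone at probes 5323 and 5324 was at -0.124 on replicate 2. That at probes 20543 and 20544 was at -0.144 on replicate 5. Myl9, the regulatory light chain of smooth muscle, had the same order as Myl12b, with -0.279, -0.560, -0.102 and -0.541 with 59Q in Cy5, against 0.609 and 0.390 with 59Q in Cy3. Myl12a, the close copy of Myl12b, averaged -0.444 ± 1.04, with replicate 5 at 1.55 and the other arrays below 0. Whether the clones of these close copies also bind the transcript of the other was not tested, and on replicate 2 the genes stood at -0.851 and 0.877. Myl6, the essential light chain, averaged -0.0201 ± 0.708, and its replicate 1 at 1.35 stood apart.

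Of the 8 unconventional myosins 6 were tested, 1 above 0 and 5 below, with a median of -0.167. Myo19, which moves mitochondria, had 0.227, 0.295, -0.734 and 0.695 with 59Q in Cy5, and -3.31 and -0.184 with 59Q in Cy3. Replicate 2 set its mean of -0.502 ± 1.46, which was 0.0600 without it. Its dye coefficient of 0.934 ± 0.403 (SE; limma adjusted p = 0.305) rests on the same array. Myo1e, a membrane-bound myosin, was the member of this class above 0, with 1.05, 0.425, 0.202 and -1.10 with 59Q in Cy5, and 1.85 and 0.323 with 59Q in Cy3. It was above 0 on 5 of 6 arrays, with overlap, and averaged 0.458 ± 0.980 (exact sign-flip p = 0.312).

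Myo5b, a vesicle carrier, had -0.854, -0.294, -0.0569 and -0.507 with 59Q in Cy5, and 0.213 and -0.234 with 59Q in Cy3. It was below 0 on 5 of 6 arrays, with overlap and a mean of -0.289 ± 0.368 (exact sign-flip p = 0.0938). Myo10, the filopodial myosin, had -0.0925, -0.109 and 0.0235 on replicates 1, 4 and 6, and -0.183 and -0.674 on replicates 2 and 5. Its mean was -0.207 ± 0.271 (n = 5), with both Cy3 arrays below the others. Myo1c had -0.179, 0.387, 0.164 and -0.923 with 59Q in Cy5, and 0.452 and -0.285 with 59Q in Cy3, and averaged -0.0640 ± 0.514. Myo1d averaged -0.126 ± 0.524. Among those not tested, Myo5a, the carrier of pigment and vesicles, had -0.183 on replicate 1, and 0.0313 and 0.618 on replicates 2 and 5. Myo9a, another unconventional myosin, had -0.405 on replicate 1, and -0.578 and 2.24 on replicates 2 and 5.

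**Figure D5:**
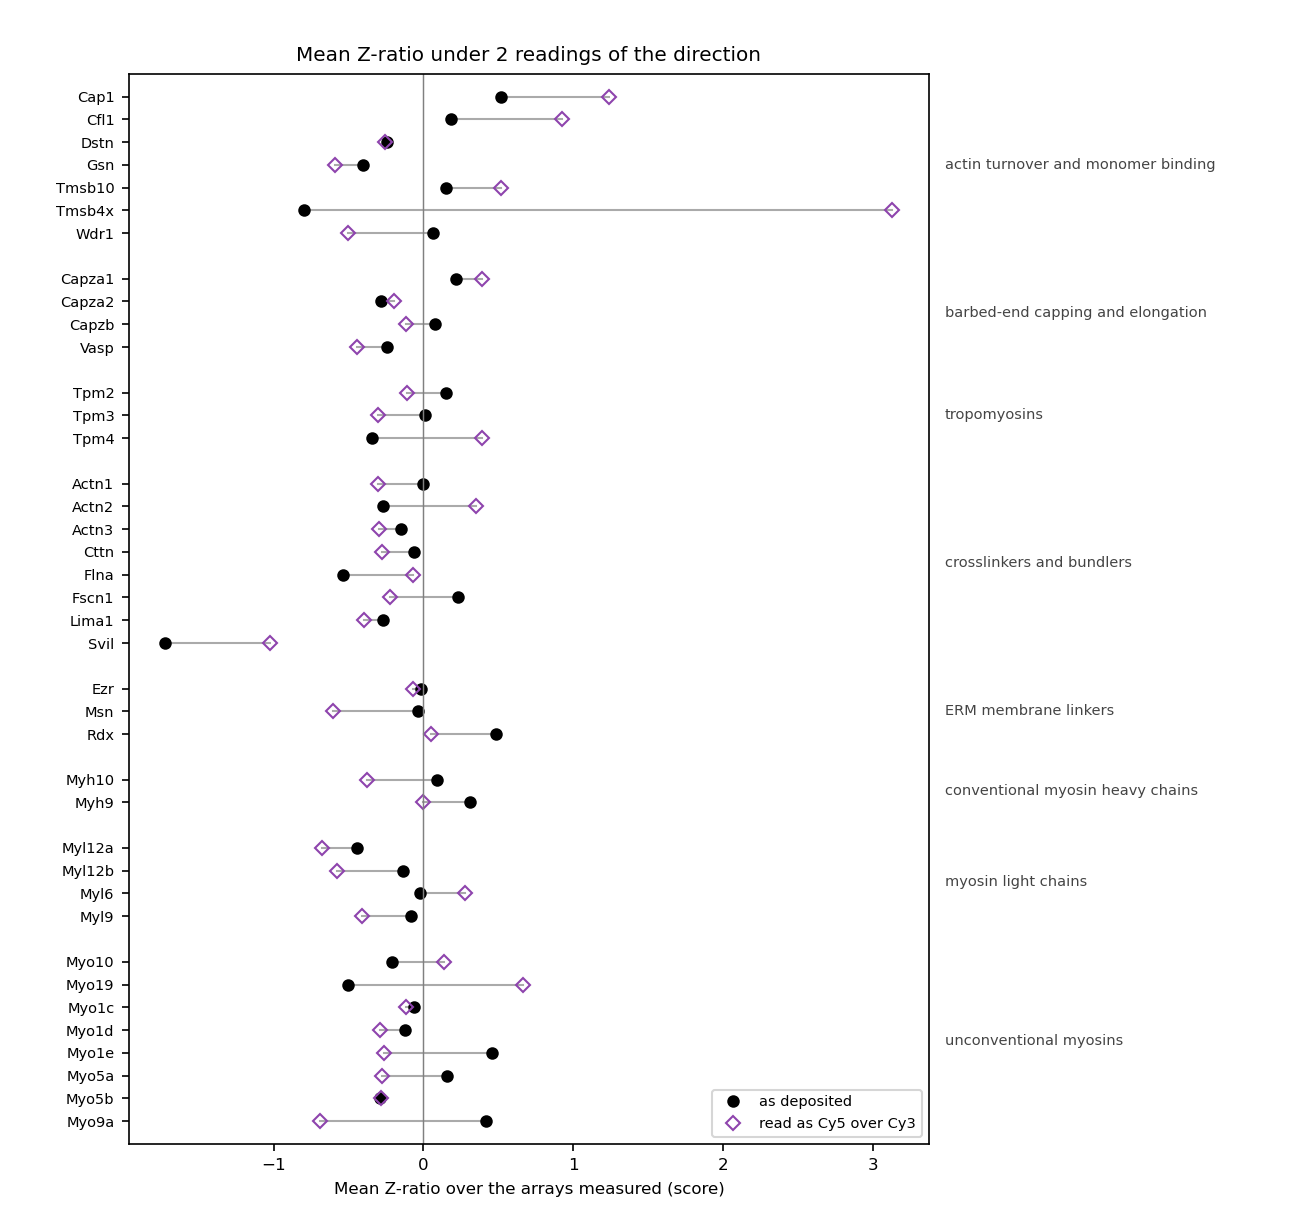
Mean Z-ratio (horizontal axis, a score) of each of the 39 members over the arrays measured, as deposited (filled circle) and as Cy5 over Cy3 (open diamond), joined by a line, in order of role. Tmsb4x lies at -0.794 as deposited and 3.13 as Cy5 over Cy3, while Svil lies below 0 under both.

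Across the members, arrays of the same orientation were more alike than arrays of opposite orientation. Over the 32 members on all 6 arrays, Pearson's r across genes ran between 0.0161 and 0.662 for the 7 comparisons of arrays of the same orientation (median 0.225) and between -0.876 and 0.0777 for the 8 of opposite orientation (median -0.322). Spearman's rank correlation, less open to Tmsb4x, had medians of 0.261 and -0.221. The points are genes of shared arrays and not independent replicates. The share of members above 0 was 33.3%, 53.1%, 33.3% and 36.1% on replicates 1, 3, 4 and 6, with 59Q in Cy5, and 61.1% and 47.2% on replicates 2 and 5, with 59Q in Cy3. Over all genes measured these shares were 40%, 37%, 42.4% and 48.2%, and 57.9% and 63.9%.

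Other genes of the actin pathway gave no call either. Of 12 formins and WASP family nucleation factors, 3 lay above 0 and 9 below, with 0 called by limma and 0 at an unadjusted p under 0.05, and Wipf1, a partner of WASP, had the smallest p, at -0.513 ± 0.669 (SD, n = 6) as deposited and -0.651 as Cy5 over Cy3. Of 23 focal adhesion genes and other actin binders, 16 lay above 0 and 7 below, with 0 called and 1 at an unadjusted p under 0.05. This was zyxin (Zyx), a focal adhesion protein, at 0.799 ± 1.08 as deposited and 0.825 as Cy5 over Cy3. Over all genes 43.1% lay above 0 and 2.61% were at an unadjusted p under 0.05. As Cy5 over Cy3, 0 of both lists were called, and 3 of the 12 and 4 of the 23 were at an unadjusted p under 0.05, against 19.8% of all genes.

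As the transfected factor binds TATA boxes, and as serum response factor is known to act on actin genes through the CArG box, the promoters of the members were searched for both. RefSeq promoters of GRCm38.p6, which run from 250 bases before to 50 after the start of the gene, were found for 34 of 39 members, and not for Actn3, Cttn, Myo1d, Myo5b and Svil. A gene was counted if any of its promoters held the match. TATAAA on either strand was held by 3 of 34 (Fscn1, Myh9 and Myo10), 8.82%, against 9% of the array's genes and 15.7% of all genes with a promoter. Relative to the start these matches lie at -31, -123 and -223, the last in only 1 of the promoters of Myo10. The CArG box, which reads the same on both strands, was held by Lima1, Myl6, Myl9 and Myo1e, 11.8%, against 1.42% of the array's genes and 1.81% of all genes with a promoter. GGGCGG on either strand, the core of the GC box, was held by 28 of 34, 82.4%, against 69.6% of the array's genes and 38.2% of all genes with a promoter. These are matches of letters and not shown sites. The Fscn1 window with its TATAAA and the windows of the 4 members with a CArG box are shown, with the match in capitals, each 80 bases on the strand of the gene.
Fscn1: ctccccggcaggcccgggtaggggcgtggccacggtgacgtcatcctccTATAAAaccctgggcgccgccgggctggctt
Lima1: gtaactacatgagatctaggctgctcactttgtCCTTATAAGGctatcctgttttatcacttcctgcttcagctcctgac
Myl6: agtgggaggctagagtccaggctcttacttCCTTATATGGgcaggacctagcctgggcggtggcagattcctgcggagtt
Myl9: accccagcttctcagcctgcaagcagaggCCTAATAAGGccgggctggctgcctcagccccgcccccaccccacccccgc
Myo1e: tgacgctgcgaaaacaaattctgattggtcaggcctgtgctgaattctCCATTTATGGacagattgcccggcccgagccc
These lie at chr5:142960275-142960354 (+ strand), chr15:99820150-99820229 (- strand), chr10:128493010-128493089 (- strand), chr2:156775274-156775353 (+ strand) and chr9:70207270-70207349 (+ strand), all upstream of the start. The matches begin 31, 47, 50, 161 and 32 bases before the start.

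The genes that share a match are listed with their means as deposited and SD. Of those with TATAAA, Fscn1 averaged 0.234 ± 0.834, Myh9 0.313 ± 0.607 and Myo10 -0.207 ± 0.271. Of those with a CArG box, Lima1 averaged -0.270 ± 0.458, Myl6 -0.0201 ± 0.708, Myl9 -0.0806 ± 0.486 and Myo1e 0.458 ± 0.980. Their dye coefficients were -0.345, 0.323, -0.435 and -0.472. With SDs of this size, a shared or a differing value cannot be read from these means. These values are a description and were not tested as groups.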

How the data were processed

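The authors labelled total RNA of 59Q and N3 transfected cells by tyramide signal amplification, hybridized it to mouse cDNA arrays, read the slides with GenePix Pro and normalized by Z score transformation. Which versions they used is unstated here. The deposited values are Z-ratios (a score) of 31200 spots on each of 6 arrays, 18384 with 1 gene symbol, 514 with several and 12302 unnamed here. Intensities and depth were not used, so precision is limited by the number of arrays. 10 spots named with several genes, 1 of them a member, were left out.

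Neighbouring duplicate spots were averaged to clones and clones to genes. Genes with a value on 4 or more of 6 arrays were set against 0 with limma 3.58.1 in R 4.3.3 (lmFit, eBayes, Benjamini-Hochberg over all genes tested), also with the sign of replicates 2 and 5 turned and with a dye term. Single genes were tested by an exact 2-sided sign-flip permutation test, whose smallest p is 0.0312 for 6 arrays. The methods name 6 replicates from different batches and the series 4 biological replicates with flip-dye repeats that are not identified. All 6 were taken as replicates. If some share RNA, the p-values do not hold, and they are too small where the sharing arrays are given in the same direction. The scripts were tested on simulated data.

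Values on every array are given for the 6 members with the smallest p, the 6 with the largest dye coefficient, those with most clones in each role and up to 4 whose clones differ in sign, and for some others chosen after their values were seen. The gene with the smallest p is named in each pathway list described, and 1 list is not reported here. The members and lists were chosen with earlier results of these data known. Alternatives covered the direction, the arrays used, centring, scaling, quantile normalization, missing values, clones, clipping, the variance model and each replicate left out. Testing every clone and a limit of 1 between duplicate spots were added after seeing the data.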

Additional observations from a re-analysis of the deposited data

Results flagged for a closer look

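In 6 members tested, 1 array lay far from the rest by the gap of its value over the whole range (Dixon's criterion). These are Fscn1 on replicate 2 at 1.80, Myl12a on replicate 5 at 1.55, Myl6 on replicate 1 at 1.35, Myo19 on replicate 2 at -3.31, Svil on replicate 4 at -3.98 and Tmsb4x on replicate 5 at -11.3. Chance alone marks about 1 in 20 genes. Of the members 16.7% were marked, against 6.67% of all genes. Without the array the means were -0.0794 for Fscn1, -0.843 for Myl12a, -0.294 for Myl6, 0.0600 for Myo19, -1.16 for Svil and 1.32 for Tmsb4x, so Fscn1, Myo19 and Tmsb4x changed sign.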

How the results depend on the processing

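With values averaged to genes, 0 members were called for the difference between 59Q and N3 under any alternative, as deposited or turned. With every clone tested on its own, 0 of 59 member clones were called as deposited, where 0 of all 14418 were. As Cy5 over Cy3, 2 of 59 were called, a clone of Ezr and the single clone of Cap1, where 279 of 14418 were. The count at an unadjusted p under 0.05, 2 as deposited, was 7 as Cy5 over Cy3, 5 on the arrays with 59Q in Cy5, 5 on replicates 3, 4 and 6, 1 among genes on all 6 arrays, 0 with clones on all 6 arrays, 0 with a variance trend and robust eBayes, 0 with duplicate spots within 1, and 1 to 3 without 1 replicate (1 without replicate 1 and without replicate 2, 3 without replicate 5). Members of 1 sign on every array, 2 as deposited, were 8, 14, 20, 0, 0 and 1 under the first 5 of these and the duplicate limit. Without 1 replicate there were 2 to 4 (4 without replicate 2, 5 or 6). Fewer arrays make 1 sign likelier by chance, and the 14 and 20 rest on 4 and 3 arrays. No share of all genes is given for them, so no change in the members can be read from them. The same limit holds for counts of 1 sign or of following the dye without 1 replicate. Of all genes, 3.05% held 1 sign as deposited and 15.4% as Cy5 over Cy3. Unadjusted limma p lay under 0.05 for 19.8%, 14.5% and 10.7% of all genes under the first 3 alternatives. For the later alternatives and without 1 replicate that share is not given, so no change in the members can be read from those counts. The median of -0.0626 was -0.239 as Cy5 over Cy3 and -0.180 to -0.000732 without 1 replicate. For the dye coefficient 0 to 1 members were called without 1 replicate, Tmsb4x without replicate 2, where 59Q in Cy3 is left with 1 array (replicate 5) assumed to vary like the others, and 8 to 11 members followed the dye. Of 496 values of 24 named members under alternatives, 50 changed sign and 5 moved by over 1 SD, and 0 were called. Tmsb4x ran between -2.07 and 3.13. Each array holds both transfections, so its ratio is already the paired comparison. Which arrays are flip-dye repeats of the same RNA is not identified, so that pairing was not modelled. Missing spots, 11234 on replicate 3, limit the values there, and the causes of these changes were not tested.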
